A study of Mus musculus with 24 samples.

Results

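Germ-free mice fed fish oil were compared with germ-free mice fed lard by the messenger RNA levels of their livers. Germ-free mice are raised without bacteria, so the comparison shows how the liver differs between the diets when no gut bacteria are there to process them. The animals were chosen by their array titles, and 12 of the 24 arrays of the study belong here, 6 for each diet. Fish oil mice 3 and 4 gave nearly the same array: over the 300 most variable genes their values differed with an SD of 0.123, against 0.349 for the next closest of all 60 pairs of mice of 1 group. They were averaged and counted once, which left 5 fish oil and 6 lard samples among the 23 of the study.

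All animals were wild-type male mice of strain C57Bl/6. Both germ-free groups and both conventional groups received diets of equal energy with 45% of calories from fat, either menhaden fish oil or lard, for 11 weeks. The design gives their age as 11 weeks when feeding began, while the sample labels give 11 weeks alone, and every mouse was fasted for 4 hours before it was killed. The other 12 mice carried bacteria and serve below only to ask whether the diet difference was the same in them. Lard is the comparison diet, not an untreated control, and no low-fat group was analysed here. No source used here gives litters or cages, and the p-values measure the spread between these mice.

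Fish oil is rich in long omega-3 fatty acids, which are known to lower the activity of SREBP-1, the transcription factor that turns on fat-making enzymes in the liver, and to activate PPAR-alpha, the receptor that turns on fatty acid oxidation. Lard is mostly saturated and monounsaturated fat with some cholesterol, and the liver stores an excess of it as triglyceride droplets. SREBP-2, the sister factor of SREBP-1, controls the enzymes of cholesterol synthesis.

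The arrays gave 1 value per gene for 19938 genes, on a log2 scale, where a difference of 1 means a doubling. Over the germ-free arrays the median gene lay between 6.92 and 7.04, 25% of genes lay below 5.62, and arrays of 1 group correlated with each other at 0.9904 to 0.9926 on average. The arrays of mice 5 and 6 of both diets stood apart from the other germ-free arrays in their spread: 25% of genes lay below 5.70 to 5.74 there and 25% above 8.75 to 8.79, against 5.54 to 5.63 and 8.87 to 8.92 in mice 1 to 4. No label says what sets them apart. Named genes that lost their call without these 4 mice are marked as such below. Of 79 counts of called list members 49 moved by more than 1.5 times without them, and not each of these is given both ways. Alb, the serum protein of hepatocytes, lay at 14.06 to 14.16 in the fish oil mice and at 14.08 to 14.15 in the lard mice, close to the top of the scale. Differences are fish oil minus lard with their standard error, folds are taken from them, and a gene was called when its p-value, adjusted over all genes, was under 0.05 in a limma fit. Fish oil values are listed in the order mouse 1, mouse 2, mice 3 and 4 averaged, mouse 5 and mouse 6. Unless the text says otherwise, a gene named below as having risen or fallen was also called with each of the 11 samples left out in turn and without mice 5 and 6 of both groups. Counts over a list are those of the fit over all samples.

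Fish oil and lard differed across a large share of the liver transcriptome. Of the 19938 genes, 2626 were called (13.2%), 914 higher on fish oil (4.58%) and 1712 lower (8.59%), and 5021 had an unadjusted p under 0.05. The median difference of all genes was 0.003. Most calls were small, with a median size of 0.413, and 209 exceeded a 2-fold change, 56 upward and 153 downward. The split between directions depends on how the arrays are scaled: 34.8% of calls were higher as deposited, 60.7% after the arrays were set to equal medians and 48% after a second quantile normalization. The groups did not overlap for 2391 genes (12%), of which 926 lay wholly above lard (4.64%) and 1465 wholly below (7.35%).

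**Figure D1:**
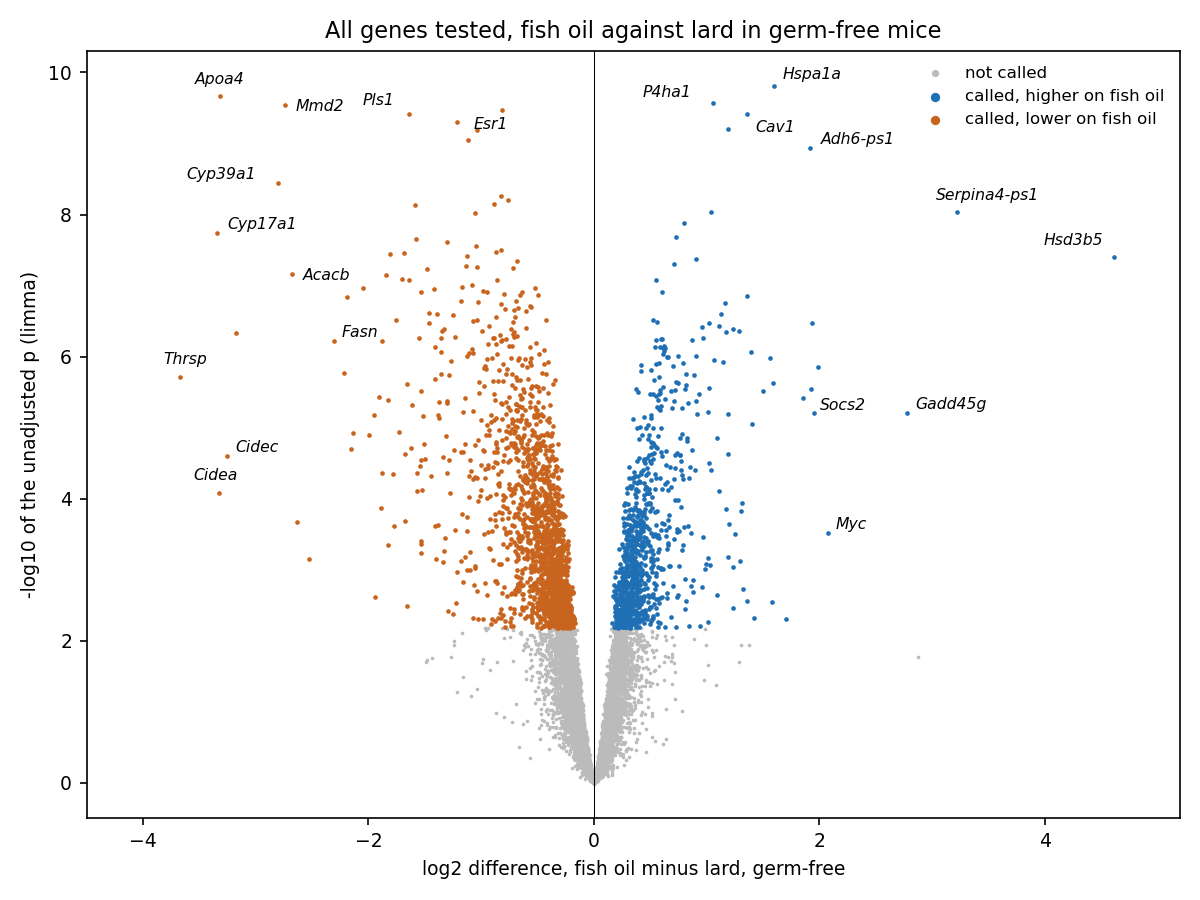
The log2 difference of each gene (horizontal axis, fish oil minus lard) against the unadjusted limma p on a -log10 scale (vertical axis), for 19938 genes. Blue points are the 914 genes called higher on fish oil and orange points the 1712 called lower, and selected genes are named, among them Thrsp at -3.67 and Hsd3b5 at 4.62.

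The enzymes that feed carbon and reducing power into fat synthesis fell together. All 9 measured genes of citrate, acetyl-CoA and NADPH supply were called lower, with a median difference of -1.38 against 0.003 for all genes. Acly, which cuts citrate into the acetyl-CoA used for fat and cholesterol, read 10.05, 10.08, 9.74, 9.68 and 9.64 on fish oil, against a lowest of 10.56, a median of 12.16 and a highest of 13.16 on lard. The fish oil mice were close together and all below the lard mice, of which mouse 6 was the lowest by far. The difference was -2.19 ± 0.30, a 4.57-fold lower level (adjusted p = 4.86e-05). Me1, which makes NADPH from malate, fell by 1.67 ± 0.32 (adjusted p = 0.00102). Pklr, the liver pyruvate kinase, fell by 1.36 ± 0.21 (adjusted p = 0.000128), and its groups did not overlap. Slc25a1, the mitochondrial citrate carrier, fell by 0.47 ± 0.10 (adjusted p = 0.00176).

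Fatty acid synthesis showed the same direction, with 8 of 12 measured genes lower and 1 higher (median difference -1.34). Fasn, the synthase that builds palmitate, read 11.41, 11.19, 10.15, 10.46 and 10.32 on fish oil and from 11.79 through a median of 13.16 to 13.72 on lard. Fish oil mice 1 and 2 were the highest of their group, lard mouse 6 was the lowest of its own, and the groups did not overlap. Fasn was 4.96-fold lower (difference -2.31 ± 0.35, adjusted p = 0.000101). Thrsp, a nuclear and cytosolic protein that promotes fat synthesis, had the largest fall of any called gene. It read 9.79, 10.56, 8.85, 8.24 and 8.28 on fish oil and from 12.37 through 12.78 to 13.32 on lard. That is a 12.7-fold lower level, with a difference of -3.67 ± 0.59 (adjusted p = 0.000203) and no overlap.

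Acacb, the acetyl-CoA carboxylase at the mitochondrial membrane whose product malonyl-CoA restrains fatty acid uptake for oxidation, and its cytosolic sister Acaca both fell. Acacb read 8.12, 8.36, 7.45, 7.81 and 8.13 on fish oil and 9.18 to 11.53 on lard (median 10.85), a difference of -2.68 ± 0.35 (adjusted p = 3.44e-05). Acaca, which supplies malonyl-CoA to fatty acid synthase, fell by 1.61 ± 0.28 (adjusted p = 0.000358). Scd1, the desaturase that makes oleate, was not called in the fit over all 4 groups: it read 13.45, 13.55, 12.29, 11.66 and 12.78 on fish oil and 13.94 to 14.09 on lard. Its groups did not overlap, the difference was -1.27 ± 0.49 and the adjusted p was 0.0961, against 0.00433 when the germ-free groups were fitted alone. Acot1, a thioesterase that frees fatty acids from coenzyme A and is a known PPAR-alpha target, was the member called higher (0.99 ± 0.26, adjusted p = 0.0133), a call it lost once a clock index, described with the clock genes below, was added to the fit (0.83, adjusted p = 0.0778).

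Of 9 listed fatty acid desaturases and elongases 8 were called lower and 1 higher (median difference -0.61). Part of the list, namely Fads1, Fads2, Elovl5 and Elovl2, turns dietary precursors into long polyunsaturated fatty acids. Fads1, the delta-5 desaturase, read 12.44, 12.05, 11.57, 11.74 and 11.53 on fish oil and 12.96 to 13.46 on lard (median 13.36). Lard mouse 6 lay apart below the other lard mice, whose values were nearly equal, and still above every fish oil mouse. The difference was -1.45 ± 0.29 (adjusted p = 0.00165). Fads2, the delta-6 desaturase, was 2.21-fold lower (-1.15 ± 0.21, adjusted p = 0.00083). Elovl5, which extends the products of Fads2, fell by 1.30 ± 0.26 (adjusted p = 0.00156), and Elovl2, which makes the longest of them, by 0.73 ± 0.13 (adjusted p = 0.00052). The member called higher was Elovl3, an elongase of saturated chains with a known day rhythm and male bias, and its call rested on few mice. Fish oil mice 5 and 6 read 12.88 and 12.75 against 11.37 to 11.91 in the other fish oil samples and 11.02 to 11.46 on lard. Its difference was 0.82 (adjusted p = 0.027), and the call was lost without fish oil mouse 5, without fish oil mouse 6 or without lard mouse 4 (adjusted p up to 0.107). Without mice 5 and 6 of both groups the difference was 0.37 (adjusted p = 0.486), and with the clock index 0.32 (adjusted p = 0.187).

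Among 13 measured genes of triglyceride synthesis 4 were lower and none higher (median difference -0.20), while 10 of 20 genes of the droplet coat and of fat release were lower and none higher (median -0.27). Gpam, the first acyltransferase of the pathway, fell by 1.38 ± 0.24 (adjusted p = 0.000445), whereas Dgat2, the last, read 12.85 to 13.05 on fish oil and overlapped with lard, where the highest was 13.15, and was not called (adjusted p = 0.231). Cidea, a protein that fuses lipid droplets and marks fatty liver in mice, read 7.42, 6.85, 7.33, 7.001 and 7.02 on fish oil and 9.56 to 11.31 on lard (median 10.54). A gap of more than a doubling separated the groups. Cidea was 10.04-fold lower (-3.33 ± 0.71, adjusted p = 0.0024). The difference was -3.21 without mice 5 and 6 of both groups and just missed the threshold there (adjusted p = 0.0528).

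Cidec, its relative and the main droplet fusion protein of white fat, read 7.90, 7.01, 8.09, 7.09 and 7.04 on fish oil and 10.28 to 11.21 on lard (median 10.67). Its groups were also more than a doubling apart. The difference for Cidec was -3.26 ± 0.63 (adjusted p = 0.00106). G0s2, an inhibitor of the main triglyceride lipase, fell 3.99-fold (-1.995 ± 0.37, adjusted p = 0.000689). Pnpla3, a lipid-remodelling enzyme under SREBP-1, fell by 1.38 ± 0.32 (adjusted p = 0.005), with lard mouse 3 the highest at 9.98 and all fish oil mice between 6.67 and 6.96. Plin2, the coat protein of most liver droplets, fell by 0.72 ± 0.13 (adjusted p = 0.000601), while Plin5 did not pass the test (-0.19 ± 0.12, adjusted p = 0.353). Without mice 5 and 6 of both groups 6 of the 20 droplet genes and 2 of the 13 synthesis genes were called lower.

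**Figure D2:**
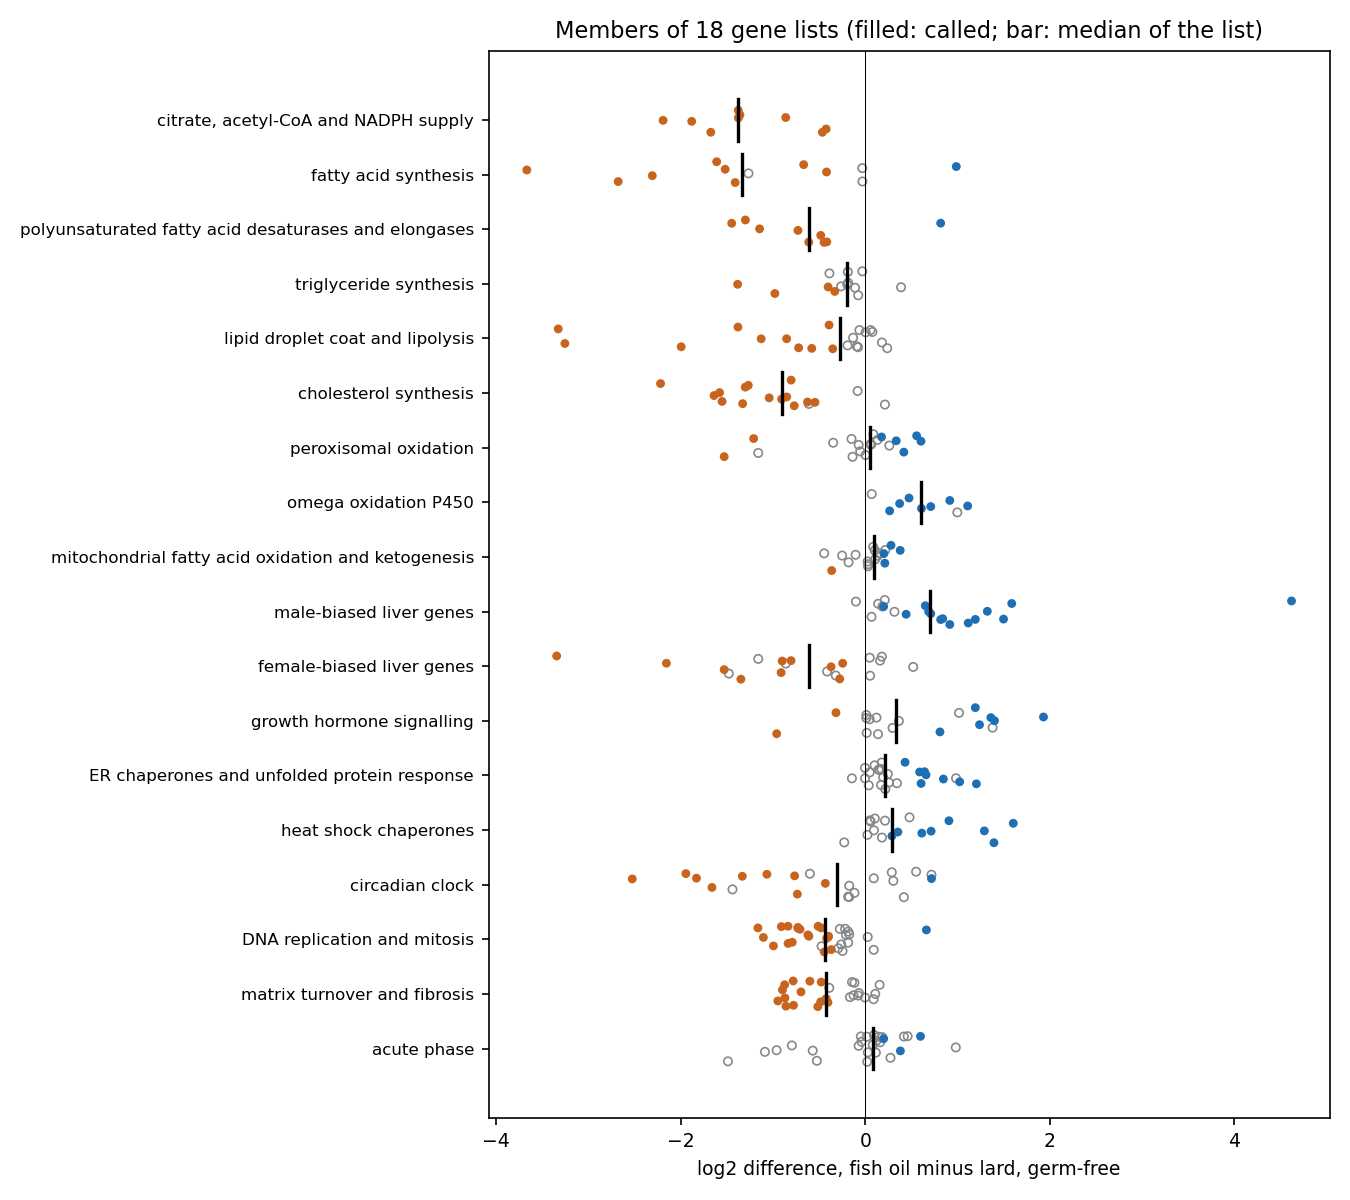
The log2 difference (horizontal axis, fish oil minus lard, germ-free mice) of each measured member of 18 gene lists (rows). Filled points were called, blue higher and orange lower on fish oil, open points were not, and the black bar is the list's median, which lies at -1.38 for citrate, acetyl-CoA and NADPH supply and at 0.70 for male-biased liver genes.

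Cholesterol synthesis fell along nearly the whole pathway. Of 17 measured enzymes 14 were lower and none higher, with a median difference of -0.91. Sqle, which puts the first oxygen on squalene and limits the flow of the late pathway, read 8.16, 7.09, 7.59, 8.03 and 7.37 on fish oil and 8.53 to 10.79 on lard (median 9.91). Lard mouse 6 was the lowest lard mouse, just above the highest fish oil mouse. Sqle was 4.66-fold lower (-2.22 ± 0.35, adjusted p = 0.000186). Msmo1, which removes methyl groups from lanosterol's products, read 10.38, 9.92, 9.47, 10.33 and 9.76 against 11.20 to 11.97 (median 11.64), with no overlap (-1.64 ± 0.22, adjusted p = 3.72e-05). Lss, which closes the sterol rings, fell by 1.58 ± 0.19 (adjusted p = 1.84e-05), and Fdps, which makes farnesyl diphosphate, by 1.55 ± 0.23 (adjusted p = 9.87e-05).

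The entry enzyme Hmgcs1 read 11.11, 10.58, 10.47, 11.03 and 11.01 on fish oil and 10.88 to 12.08 on lard (median 11.91). Lard mouse 6, at 10.88, lay within the fish oil range and the other 5 lard mice at 11.71 or above. Hmgcs1 fell by 0.91 ± 0.21 (adjusted p = 0.00565). Among the regulators, 4 of 12 measured genes were lower and none higher (median difference -0.22). Insig1, which holds the SREBP proteins in the endoplasmic reticulum and is itself one of their targets, read 11.56, 11.46, 10.71, 11.58 and 11.34 against 12.29 to 13.17 (median 12.86), a difference of -1.46 ± 0.21 (adjusted p = 7.79e-05). Srebf1, the gene of SREBP-1, fell by 1.12 ± 0.26 (adjusted p = 0.00411). Mlxipl, the gene of the sugar-sensing factor ChREBP, read 10.81 to 11.36 on fish oil and 10.49 to 11.24 on lard and was not called (adjusted p = 0.38).

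A sterol regulatory element, the DNA word bound by SREBP proteins, was looked for in the promoters, from 250 bases before to 50 after the gene start in RefSeq. The letters TCACNCCAC, on either strand, occurred in 408 of 32851 mouse promoters (1.24%) and in 1 of the 14 cholesterol synthesis genes with a promoter in the table, Hmgcs1. Its stretch is shown because it places the word in a promoter whose gene fell. It lies on the plus strand of GRCm38.p6 at chr13:119690184-119690252, the word starts 137 bases before the gene start, and capitals mark it.
Hmgcs1: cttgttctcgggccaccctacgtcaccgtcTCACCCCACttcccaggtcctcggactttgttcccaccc

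Genes for the transport of lipids out of and between cells moved in both directions. Of 19 measured apolipoproteins and lipases 2 were higher and 5 lower (median difference 0.02, or -0.01 after a second quantile normalization). These counts were 4 and 3 after the arrays were set to equal medians, 0 and 3 without mice 5 and 6 of both groups, and 0 and 2 with the clock index. The higher count was 1 without any of 6 samples (fish oil mice 3 and 4, mouse 5 or mouse 6, lard mouse 1, mouse 2 or mouse 3). Apoa4, an apolipoprotein that rises in fatty mouse livers, read 10.09, 10.22, 10.48, 10.04 and 9.99 on fish oil and 13.10 to 13.80 on lard (median 13.52). Both groups were tight and far apart, and Apoa4 was 9.98-fold lower (-3.32 ± 0.32, adjusted p = 1.09e-06). Its neighbour in the same gene cluster, Apoa1, the main protein of high-density lipoprotein, stayed at 13.95 to 14.01 on fish oil and 13.97 to 14.07 on lard (adjusted p = 0.788). Pltp, which moves phospholipids between lipoproteins, read 9.93, 9.64, 9.60, 9.63 and 9.72 against 10.86 to 11.37, a difference of -1.48 ± 0.19 (adjusted p = 3.02e-05). Lpl, the lipase that releases fatty acids from circulating triglyceride, was called higher (0.67 ± 0.18, adjusted p = 0.0124). Its difference was 0.41 without mice 5 and 6 of both groups (adjusted p = 0.281) and 0.43 with the clock index (adjusted p = 0.112), and the call was lost in both.

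Of 17 genes of phospholipid synthesis and remodelling 2 were higher and 5 lower (median difference -0.10), and with 1 sample left out the higher count ran from 0, without fish oil mouse 6, to 2. Mfsd2a, the carrier of lysophospholipids that contain the omega-3 acid DHA, read 9.49, 10.19, 9.85, 9.41 and 10.47 on fish oil and 12.04 to 12.87 on lard (median 12.55). Every fish oil mouse lay more than a doubling below every lard mouse. Mfsd2a was 6.22-fold lower (-2.64 ± 0.61, adjusted p = 0.00463), and with the clock index the difference was -1.69 (adjusted p = 0.042). Pcyt2, which activates ethanolamine for phosphatidylethanolamine, fell by 0.63 ± 0.15 (adjusted p = 0.00491).

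The P450 enzymes that start omega oxidation, the attack on the tail end of a fatty acid, were called higher in 7 of 9 measured cases and lower in none (median difference 0.61), and in 6 or 7 with 1 sample left out. The Cyp4a genes lie in 1 cluster and are close copies, so that part of a signal may come from a neighbour. Cyp4a31 read 11.78, 11.93, 11.998, 12.07 and 12.24 on fish oil and 10.13 to 11.55 on lard (median 10.93). The groups did not overlap, and the difference was 1.11 ± 0.23 (adjusted p = 0.00227). Cyp4f14, which also inactivates leukotriene B4, rose by 0.47 ± 0.09 (adjusted p = 0.00113). Cyp4a14, a strong PPAR-alpha target in mice, read 13.56, 13.50, 13.62, 13.61 and 13.71 against 11.94 to 12.98 and did not overlap, yet was not called over all 4 groups (1.00 ± 0.36, adjusted p = 0.0738). With the germ-free groups fitted alone its adjusted p was 0.000495. With the clock index 5 of the 9 genes were called, and 4 without mice 5 and 6 of both groups. Cyp4a10, another PPAR-alpha target, was called at 0.61 ± 0.18 (adjusted p = 0.0249) but lost the call in both of these fits and without fish oil mouse 2, fish oil mouse 6, lard mouse 1 or lard mouse 3 (adjusted p up to 0.0902).

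Oxidation inside peroxisomes and mitochondria differed less. Of 19 peroxisomal genes 5 were higher and 2 lower (median difference 0.05), and of 18 genes of mitochondrial oxidation and ketogenesis 4 were higher and 1 lower (median 0.09). Without mice 5 and 6 of both groups the higher counts were 3 and 1, and none of the 3 lower calls was made. Eci2, an isomerase for unsaturated chains, read 11.72, 11.66, 11.81, 11.71 and 11.59 on fish oil and 10.80 to 11.35 on lard, a difference of 0.60 ± 0.09 (adjusted p = 9.87e-05). Crot, which loads shortened chains onto carnitine for export from the peroxisome, rose by 0.56 ± 0.09 (adjusted p = 0.000155). Acadl, the long-chain acyl-CoA dehydrogenase of mitochondria, rose by 0.38 ± 0.06 (adjusted p = 0.000263). Acot3, a peroxisomal thioesterase with a female bias in mouse liver, was called lower (-1.53 ± 0.39, adjusted p = 0.00924), but not without mice 5 and 6 of both groups (-1.33, adjusted p = 0.136) or with the clock index (-1.06, adjusted p = 0.0848). Acadm, the medium-chain dehydrogenase, read 12.77 to 12.88 on fish oil and 12.64 to 12.89 on lard (adjusted p = 0.857).

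The broader list of PPAR-alpha targets and fasting genes held 2 higher and 4 lower among 17 (median difference -0.09), and without fish oil mouse 6 the lower count was 2. Slc27a1, a fatty acid transport protein, rose by 0.75 ± 0.12 (adjusted p = 0.000231). Aqp7, a glycerol channel, and Fabp2, a fatty acid binding protein best known from the intestine, were lower. Fabp2 was called at -1.14 ± 0.29 (adjusted p = 0.0101), a call lost without mice 5 and 6 of both groups (-1.08, adjusted p = 0.118) and with the clock index (-0.69, adjusted p = 0.093). Aqp7 read 5.24 to 5.78 on fish oil, around the 25th percentile of all genes, and 6.33 to 7.47 on lard (adjusted p = 0.000115). Pdk4, the kinase that closes pyruvate oxidation in fasting, read 8.13, 7.56, 7.81, 8.16 and 8.10 against 8.34 to 10.12 without overlap and missed the threshold (-1.17 ± 0.40, adjusted p = 0.0562).

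In bile acid synthesis 2 of 12 genes were higher and 1 lower (median difference 0.04). Cyp7b1, the oxysterol 7-alpha-hydroxylase of the acidic route, read 12.41, 12.36, 12.88, 12.94 and 12.47 on fish oil and 10.75 to 11.78 on lard (median 11.02). It was 2.83-fold higher (1.498 ± 0.25, adjusted p = 0.000272), with no overlap. Cyp39a1, which acts on 24-hydroxycholesterol, read 6.81, 6.79, 6.66, 6.29 and 6.29 against 8.88 to 10.09 (median 9.33) and was 6.99-fold lower (-2.81 ± 0.31, adjusted p = 5.56e-06). Cyp7a1, the rate-limiting enzyme of the classical route, read 11.43 to 12.53 on fish oil and 11.57 to 12.40 on lard (0.02 ± 0.40, adjusted p = 0.988). Cyp8b1, which makes cholic acid, was not called either (-0.26 ± 0.18, adjusted p = 0.418). Of 18 genes of bile acid transport and signalling 4 were higher and 2 lower, among them Fgfr4, the liver receptor for the intestinal hormone FGF15, with a rise of 0.53 ± 0.10 (adjusted p = 0.000592).

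Genes that male mouse livers express more than female ones were higher on fish oil, and several of the female-biased ones were lower, although all mice were male. Eif2s3y, on the Y chromosome, lay at 9.72 to 9.98 on fish oil and 9.52 to 9.85 on lard, and Xist, which female cells express, at 4.38 to 4.76 and 4.17 to 4.62. Of 20 measured male-biased genes 14 were higher and none lower (median difference 0.70). Hsd3b5, a steroid dehydrogenase found in male liver, had the largest rise of all genes. It read 12.34, 12.22, 12.34, 12.40 and 12.17 on fish oil, and on lard 6.81, 6.12, 6.24, 6.75, 8.94 and 11.20. The fish oil mice were nearly equal, lard mice 1 to 4 lay below the median of all genes, and lard mice 5 and 6 lay between. The difference was 4.62 ± 0.59, a 24.6-fold higher level (adjusted p = 2.47e-05).

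Slco1a1, a male-biased carrier of organic anions, followed the same order of mice. It read 12.18, 12.04, 12.11, 12.20 and 11.96 on fish oil and 9.59 to 11.88 on lard (median 10.38), lard mouse 6 being the highest and mouse 5 next at 11.01 (1.59 ± 0.26, adjusted p = 0.000231). Susd4, a regulator of complement, rose by 1.19 ± 0.23 (adjusted p = 0.00101), and C8b, a part of the complement pore, by 1.12 ± 0.16 (adjusted p = 8.23e-05). Cyp4a12b, the male omega-hydroxylase, rose by 0.92 ± 0.16 (adjusted p = 0.000436). Averaged over the list, the fish oil samples lay at 11.90 to 12.11 and the lard mice at 10.82 to 11.55, with lard mice 5 and 6 the highest of their group.

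Of 20 measured female-biased genes 10 were lower and none higher (median difference -0.61), and 7 of the 20 lay in 1 group at least below the level of 5.62. Cyp17a1, the steroid 17-hydroxylase, read 7.34, 7.67, 7.26, 7.53 and 7.07 on fish oil and 9.39 to 11.69 on lard (median 10.84). Lard mouse 6 was the lowest lard mouse by more than a doubling, and the groups did not overlap. Cyp17a1 was 10.2-fold lower (-3.35 ± 0.41, adjusted p = 1.63e-05). Slc22a27, an organic anion carrier, read 4.57 to 5.42 on fish oil, below that level, and 6.26 to 8.10 on lard (adjusted p = 0.000914), so no fold is given. Cyp2b13 read 6.15 to 7.02 on fish oil and spread over 6.47 to 9.21 on lard, with mice 5 and 6 lowest, and was not called (adjusted p = 0.101). Cyp2b9, its close copy, was not called (0.16 ± 0.52, adjusted p = 0.899). The count of 10 was 5 without fish oil mouse 5, without mice 5 and 6 of both groups, or after the arrays were set to equal medians, and 6 without lard mouse 3 or lard mouse 4.

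Growth hormone is secreted in pulses in males, and its pulses maintain the male pattern of liver genes through the factor STAT5B. Of 18 genes of growth hormone signalling 6 were higher and 2 lower (median difference 0.33). Socs2, a feedback inhibitor that growth hormone itself induces, read 11.46, 10.91, 12.12, 10.96 and 12.42 on fish oil and 8.39 to 10.45 on lard (median 9.64). The groups did not overlap, and Socs2 was 3.81-fold higher (1.93 ± 0.32, adjusted p = 0.000263). The dimmer Socs2 probe set differed by 1.09, with means of 8.65 on fish oil and 7.56 on lard. The difference was 1.51 when the probe sets of Socs2 were averaged. Igfbp2, which binds insulin-like growth factors, read 11.74, 11.41, 11.50, 11.56 and 11.35 against 9.59 to 10.57 (1.40 ± 0.25, adjusted p = 0.000535). Igfbp3, the main carrier of these factors in blood, went the other way and fell by 0.96 ± 0.18 (adjusted p = 0.00069). Igf1 itself read 12.52 to 12.64 on fish oil and 12.41 to 12.53 on lard (0.12 ± 0.06, adjusted p = 0.177), and Ghr, the receptor, was not called (0.01 ± 0.06, adjusted p = 0.947). Bcl6, a repressor that opposes STAT5, spread from 6.74 to 10.22 among lard mice, with mouse 6 at the top, and was not called (adjusted p = 0.0733).

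**Figure D3:**
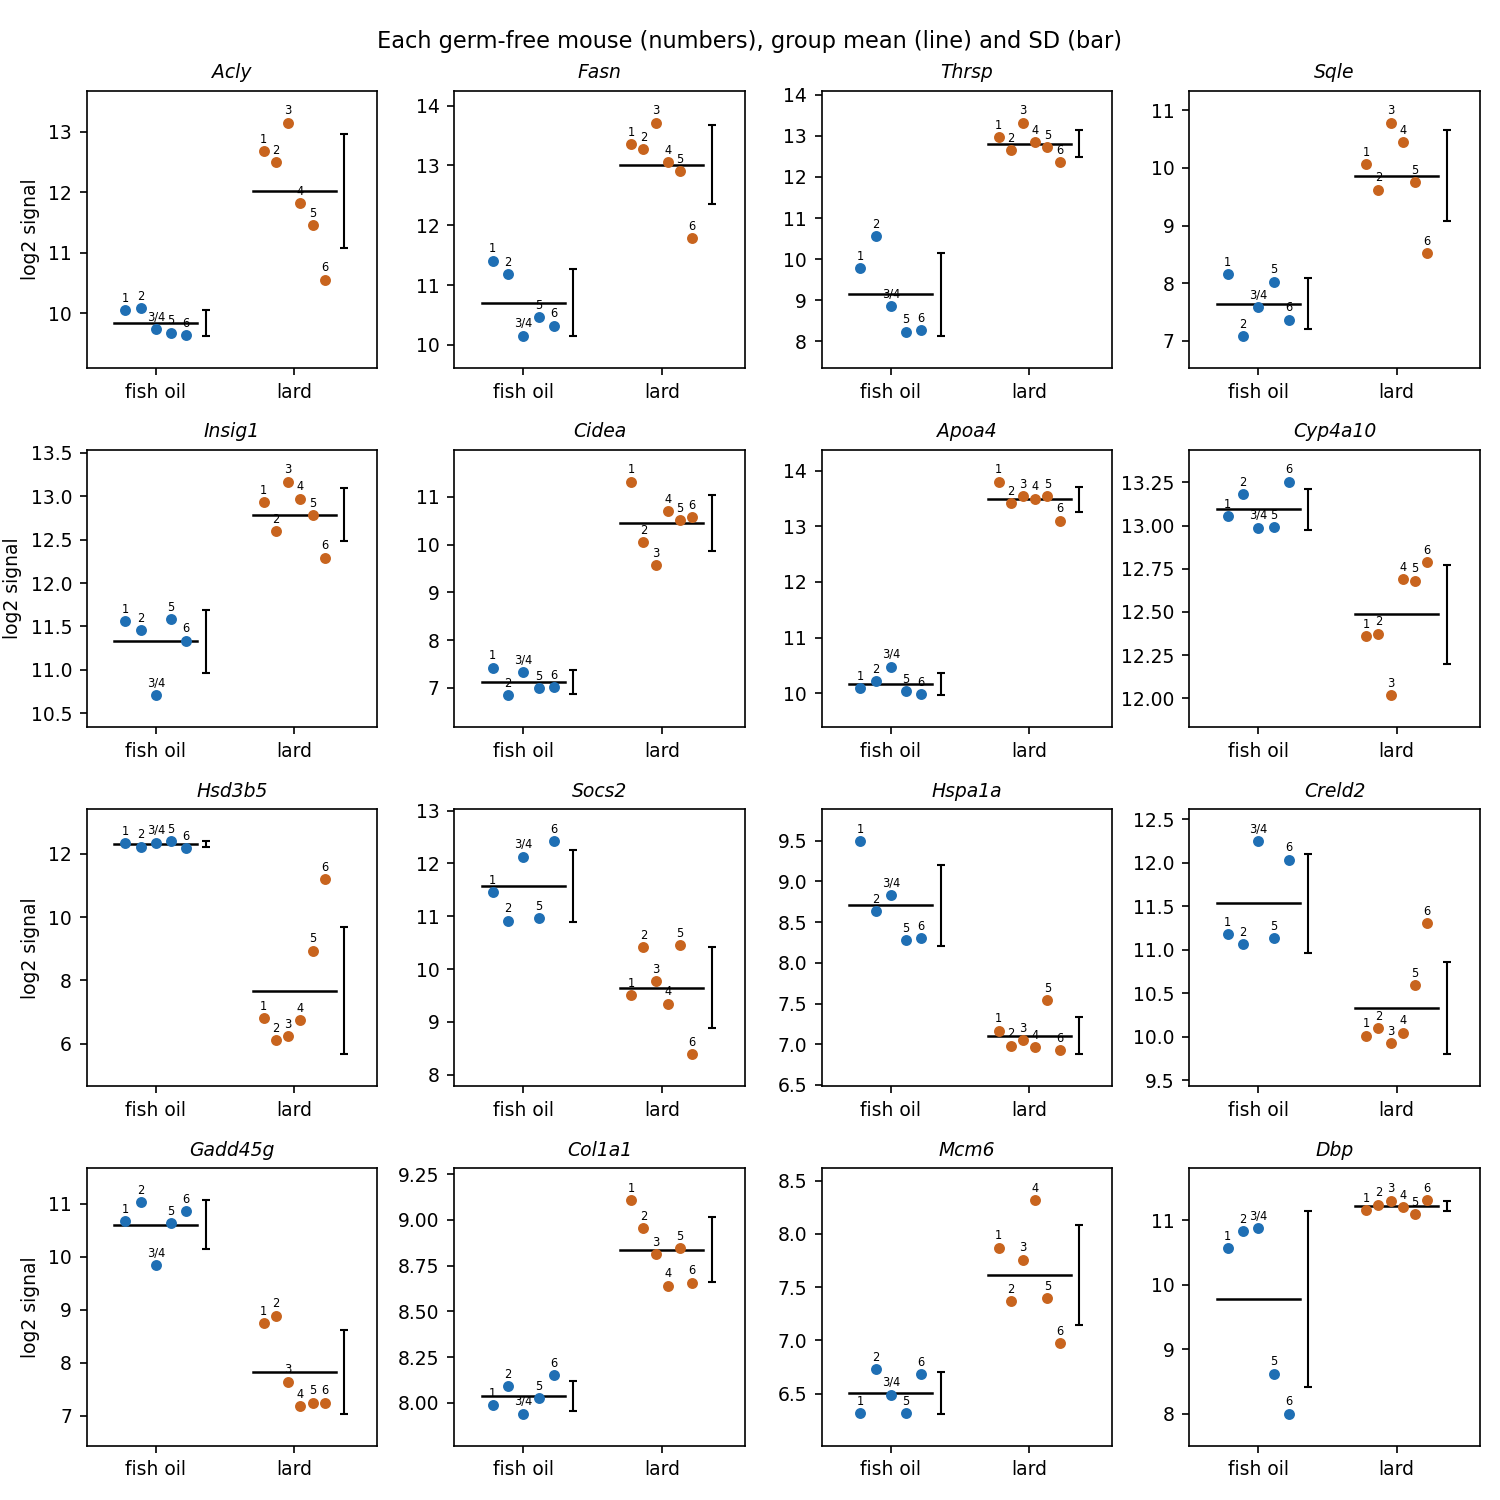
Log2 signal (vertical axes, each panel with its own range) of 16 genes in each germ-free mouse, fish oil in blue and lard in orange, with mouse numbers, the group mean as a line and the SD as a bar (n = 5 and 6). Fish oil mice 5 and 6 stand apart for Dbp at 8.62 and 7.998, and lard mouse 6 stands nearest to the fish oil mice for Acly, Fasn, Sqle and Hsd3b5.

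Detoxifying enzymes changed in both directions. Of 28 xenobiotic P450 genes and receptors 7 were higher and 2 lower (median difference 0.07). Cyp1a2, which oxidises caffeine and many amines, read 13.02, 12.99, 12.96, 13.12 and 13.03 on fish oil and 11.69 to 12.24 on lard (median 11.80). Both groups were tight, and Cyp1a2 was 2.24-fold higher (1.16 ± 0.16, adjusted p = 5.41e-05). Cyp2c54, which makes signalling epoxides from arachidonic acid, rose by 1.19 ± 0.21 (adjusted p = 0.000439), and Cyp2c39 was called lower (-1.40 ± 0.36, adjusted p = 0.0106). Cyp2c39 lost the call without mice 5 and 6 of both groups (-1.44, adjusted p = 0.089) and with the clock index (-0.92, adjusted p = 0.0974). The Cyp2c genes are near copies of each other, and their probe sets may share signal. Nqo1, a quinone reductase and NRF2 target, fell by 0.92 ± 0.20 (adjusted p = 0.00259), and of the 25 genes of the NRF2 list 1 was called higher and 3 lower. With 1 sample left out the higher count was 0 or 1, being 1 without fish oil mouse 6, lard mouse 1 or lard mouse 2, and the lower count ran from 2 without lard mouse 3 to 5 without lard mouse 6. The called share of 16% stands beside 13.2% of all genes. Ugt2b37, a glucuronosyl transferase, read 9.14, 8.49, 10.48, 8.35 and 9.63 on fish oil and 6.88 to 7.495 on lard, a 3.88-fold higher level (adjusted p = 0.000424). All 4 measured flavin monooxygenases were lower (median difference -0.63). Fmo4 differed by -1.32 ± 0.32 (adjusted p = 0.00658; -0.82 and adjusted p = 0.0618 with the clock index) and Fmo5 by -0.40 ± 0.08 (adjusted p = 0.00117). Without fish oil mouse 5, or without mice 5 and 6 of both groups, 2 of the 4 were called, and with the clock index 1.

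Chaperones and co-chaperones of the cytosol and mitochondria, which fold proteins and refold them after damage, were called higher in 8 of 17 measured cases and lower in none (median difference 0.29). With 1 sample left out 6 to 8 were called higher. Hspa1a, the inducible HSP70, read 9.50, 8.63, 8.83, 8.28 and 8.30 on fish oil and 6.93 to 7.54 on lard (median 7.02). Fish oil mouse 1 was the highest, the groups did not overlap, and Hspa1a was 3.04-fold higher (1.604 ± 0.15, adjusted p = 1.09e-06). It differs little in sequence from its neighbour gene, which may share the signal. Hsph1, an HSP110 that recharges HSP70, read 10.96, 10.90, 11.32, 10.79 and 11.07 against 9.26 to 9.997 (1.39 ± 0.21, adjusted p = 0.000125). Dnajb1, an HSP40 that hands proteins to HSP70, read 10.01, 9.68, 11.22, 9.60 and 9.72 on fish oil, where mice 3 and 4 stood out, and an even 8.72 to 8.78 on lard (1.29 ± 0.19, adjusted p = 9.09e-05).

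Bag3, a co-chaperone that directs damaged proteins to autophagy, rose by 0.91 ± 0.15 (adjusted p = 0.000331), and Hsp90aa1, the inducible HSP90, by 0.71 ± 0.12 (adjusted p = 0.000333). The constitutive Hspa8 read 13.39 to 13.54 on fish oil and 13.28 to 13.39 on lard and was not called (0.10 ± 0.06, adjusted p = 0.26). The mitochondrial Hspd1 was not called either (0.02 ± 0.08, adjusted p = 0.913). Stip1, which links HSP70 to HSP90, was called at 0.29 ± 0.09 (adjusted p = 0.0333) and lost the call without any of 6 samples, without mice 5 and 6 of both groups (0.23, adjusted p = 0.304) and with the clock index (0.19, adjusted p = 0.223).

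A heat shock element, the word bound by the heat shock factor HSF1, was searched as GAA, any 2 bases, TTC, any 2 bases and GAA, on both strands. It was in 198 of 32851 promoters (0.603%) and in 4 of the 14 cytosolic and mitochondrial chaperone genes with a promoter in the RefSeq table, namely Hsph1, Hspd1, Hspe1 and Chordc1. Of these, Hsph1 was called with each sample left out, Hspe1 was called (0.35 ± 0.11, adjusted p = 0.0278) but lost the call without any of 5 samples (fish oil mouse 1, mice 3 and 4, or mouse 6, lard mouse 2 or mouse 5; adjusted p up to 0.0862), without mice 5 and 6 of both groups (adjusted p = 0.146) and with the clock index (adjusted p = 0.067), and Hspd1 and Chordc1 were not called. The word therefore occurred in the promoters of genes that were called and genes that were not. In Hsph1 it lies after the gene start, at -36 when counted in bases before it, which is still within the stretch searched. Hspe1 is shown, at chr1:55088029-55088101 of GRCm38.p6, plus strand, with the word read on the opposite strand 89 bases before the gene start and in capitals.
Hspe1: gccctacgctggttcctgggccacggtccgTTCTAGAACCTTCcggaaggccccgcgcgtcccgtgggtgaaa

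The chaperones of the endoplasmic reticulum, where secreted proteins fold, were called higher in 8 of 25 measured cases and lower in none (median difference 0.22), and in 5 with the clock index. Creld2, a disulfide isomerase induced by misfolded protein, read 11.18, 11.06, 12.25, 11.13 and 12.04 on fish oil and 9.92 to 11.30 on lard (median 10.07). Fish oil mice 3 and 4 and mouse 6 were the highest, and lard mouse 6, at 11.30, lay within the fish oil range. Creld2 was 2.30-fold higher (1.204 ± 0.28, adjusted p = 0.00491). Syvn1, the ubiquitin ligase that marks misfolded proteins for removal, read 10.56, 10.35, 11.24, 10.33 and 11.06 against 9.40 to 10.43, with lard mouse 6 again the highest lard mouse (1.02 ± 0.20, adjusted p = 0.00124). Sdf2l1 rose by 0.85 ± 0.17 (adjusted p = 0.00173) and the stress sensor Ern1 by 0.60 ± 0.14 (adjusted p = 0.00472; 0.62 and adjusted p = 0.0515 without mice 5 and 6 of both groups). Hspa5, the HSP70 of this compartment, was called higher (0.43 ± 0.12, adjusted p = 0.0147), and lost its call without fish oil mice 3 and 4 or without fish oil mouse 6 (adjusted p up to 0.0527) and with the clock index (0.37, adjusted p = 0.0812). Xbp1, Pdia4 and Herpud1, which belong to the same response, were not called, with adjusted p of 0.248, 0.122 and 0.255. For Pdia4 this holds for the brighter probe set, which differed by 0.17. A dimmer Pdia4 probe set differed by 1.17, with means of 9.10 on fish oil and 7.93 on lard, and was not tested alone.

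An ER stress element, the word bound by the factors ATF6 and NF-Y, was searched as CCAAT followed by any 9 bases and CCACG, on both strands. It was in 39 of 32851 promoters (0.119%) and in 9 of the 22 list genes with a promoter in the table, of which 3 were called. Hsp90b1, Pdia6, Dnajc3, Calr, Canx and Derl3 carry the word too and were not called. Of the 6 called list genes with a promoter 3 have it, so the word occurred with and without a call. The 3 promoters printed here were picked because their genes were called higher, and capitals mark the word. All lie on the plus strand of GRCm38.p6: Hspa5 at chr2:34771995-34772073 with the word 65 bases before the gene start, Creld2 at chr15:88819490-88819568 with the word on the opposite strand 126 bases before, and Syvn1 at chr19:6046502-6046580 with the word 44 bases before.
Hspa5: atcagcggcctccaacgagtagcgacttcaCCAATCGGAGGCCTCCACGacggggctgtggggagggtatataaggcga
Creld2: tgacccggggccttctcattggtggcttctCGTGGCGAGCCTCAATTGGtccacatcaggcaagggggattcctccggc
Syvn1: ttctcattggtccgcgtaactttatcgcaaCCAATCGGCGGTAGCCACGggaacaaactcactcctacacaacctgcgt

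The response to amino acid shortage through ATF4 held 5 genes higher and 1 lower among 22 (median difference 0.10), and without fish oil mouse 5, fish oil mouse 6 or lard mouse 4 the higher count was 3. Ppp1r15a, which restarts protein synthesis after stress, rose by 0.58 ± 0.09 (adjusted p = 0.000153) and Ddit3, the factor CHOP, by 0.56 ± 0.11 (adjusted p = 0.000901). Of 59 cytosolic ribosomal proteins 8 were higher, none was lower and 57 had a positive difference, with a median of 0.16. Their called share of 13.6% stands beside 13.2% of all genes, of which 4.58% were called higher and 8.59% lower. With the germ-free groups fitted alone 19 of the 59 were called higher, with 16 after the arrays were set to equal medians, and 2 without mice 5 and 6 of both groups.

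Growth control genes held some of the largest rises, with 5 of 26 higher and 1 lower (median difference 0.15). Gadd45g, a stress-induced brake on cell division, read 10.68, 11.03, 9.84, 10.63 and 10.86 on fish oil and 7.18 to 8.89 on lard (median 7.45). Lard mice 1 and 2 were the highest of their group and still lay below every fish oil sample. Gadd45g was 6.88-fold higher (2.78 ± 0.49, adjusted p = 0.000427). Myc, a driver of growth and ribosome production, read 10.94, 10.67, 9.32, 10.21 and 10.19 against 6.75 to 10.04 (median 7.98). Lard mouse 2, at 10.04, overlapped with the fish oil mice (2.07 ± 0.49, adjusted p = 0.00589). Myc was not called without mice 5 and 6 of both groups (1.61, adjusted p = 0.125). Ccnd1, the cyclin that lets cells enter the cycle, read 9.18, 9.21, 9.21, 8.72 and 8.89 on fish oil and 10.02 to 11.38 on lard, a 3.22-fold lower level (-1.68 ± 0.21, adjusted p = 2.39e-05).

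Many genes of DNA replication and mitosis were called lower, 19 of 32, and 1 was called higher (median difference -0.43). With 1 sample left out the lower count ran from 13, without lard mouse 1, to 20. Their levels were low in both groups, as is usual for adult liver. Mcm6, a part of the replicative helicase, read 6.32, 6.73, 6.49, 6.32 and 6.69 on fish oil and 6.97 to 8.31 on lard (median 7.58). Lard mouse 4 was the highest, and the groups did not overlap (-1.10 ± 0.17, adjusted p = 0.00013). Mcm2 fell by 1.00 ± 0.15 (adjusted p = 9.09e-05), and Rrm2, which makes the building blocks of DNA, by 1.16 ± 0.20 (adjusted p = 0.000418). Mki67, the proliferation marker, read 5.76 to 6.01 on fish oil and 6.26 to 7.01 on lard (-0.71 ± 0.16, adjusted p = 0.0051). Mcm10, which also belongs to replication, rose by 0.66 ± 0.10 (adjusted p = 0.000139). Among genes above the median signal only, 10 of the list were called lower. In a whole liver, fewer cells of a type and less RNA per cell cannot be told apart.

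Sugar metabolism was lower at several steps. Of 17 genes of glycolysis, fructose and glycogen 7 were lower and 1 higher (median difference -0.30). Khk, which takes up fructose into metabolism, read 11.36, 11.64, 11.29, 11.18 and 11.31 on fish oil and 11.67 to 12.29 on lard (-0.66 ± 0.12, adjusted p = 0.000728). Gbe1, the branching enzyme of glycogen, fell by 0.76 ± 0.16 (adjusted p = 0.00196). Pfkfb3, an activator of glycolysis, was called higher (1.00 ± 0.26, adjusted p = 0.0119), but not without mice 5 and 6 of both groups (1.07, adjusted p = 0.0765). In the list of glucose production and insulin signalling 2 of 21 were higher and 4 lower (median 0.09), and without fish oil mouse 5, fish oil mouse 6, lard mouse 1 or lard mouse 3 the lower count was 2. Both that rose are docking proteins of the insulin receptor: Irs2 read 9.40, 9.30, 9.51, 9.02 and 9.16 on fish oil and 7.56 to 8.18 on lard (1.36 ± 0.19, adjusted p = 4.7e-05), and Irs1 rose by 0.89 ± 0.18 (adjusted p = 0.00144), or by 0.50 when its probe sets were averaged (adjusted p = 0.00439). The glucose-producing enzymes Pck1 and G6pc were not called, with adjusted p of 0.412 and 0.828.

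Genes of connective tissue fell in the fish oil group. Of 25 genes of matrix turnover and fibrosis 14 were lower and none higher (median difference -0.42), with the same count of 14 in every fit that left out 1 sample. Timp3, an inhibitor of matrix proteases, read 8.79, 8.66, 9.23, 8.87 and 8.46 on fish oil and 9.47 to 9.86 on lard (-0.90 ± 0.13, adjusted p = 9.87e-05). Mmp2, a collagenase, fell by 0.95 ± 0.15 (adjusted p = 0.00014), Sparc, which assembles collagen fibres, by 0.78 ± 0.13 (adjusted p = 0.000341), and Vim, the filament of mesenchymal cells, by 0.70 ± 0.13 (adjusted p = 0.000629). Col4a1, a basement membrane collagen, was not called (-0.07 ± 0.09, adjusted p = 0.692).

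The markers of stellate cells and fibroblasts, the liver cells that make collagen, moved with this list: 7 of 10 were lower and none higher (median difference -0.59). Their mean lay at 8.57 to 8.66 in the fish oil samples and at 9.07 to 9.29 in the lard mice. Col1a2, a chain of type I collagen, read 7.91, 7.86, 7.84, 7.91 and 7.92 on fish oil and 8.56 to 8.92 on lard. It was the steadiest of them within each group (-0.83 ± 0.09, adjusted p = 7.83e-06). Col1a1 fell by 0.80 ± 0.11 (adjusted p = 4.6e-05), Lrat, which stores retinol in stellate cells, by 0.93 ± 0.17 (adjusted p = 0.000614), and Pdgfrb, their growth factor receptor, by 0.81 ± 0.12 (adjusted p = 0.000101). Hand2 and Reln, further markers, were not called (adjusted p = 0.266 and 0.675). What part of the change in matrix genes goes with these markers was not tested.

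Markers of other liver cells were compared in the same way. Of 6 cholangiocyte markers 4 were lower, and their mean lay at 6.30 to 6.40 on fish oil and 6.59 to 6.82 on lard. Epcam, a surface protein of bile duct cells, read 6.31, 6.32, 6.60, 5.95 and 6.21 against 6.68 to 7.08 (-0.68 ± 0.12, adjusted p = 0.000399), while Sox9, another such marker, was not called (0.05 ± 0.12, adjusted p = 0.87). Of 10 endothelial markers 2 were called lower, with means of 9.25 to 9.37 against 9.40 to 9.75. The endothelial count was 3 without lard mouse 6, 2 without lard mouse 4, 1 without any other sample, and 0 without mice 5 and 6 of both groups or with the clock index. Of 10 Kupffer cell markers 1 was called higher, Clec4f, at the edge of the threshold (0.40, adjusted p = 0.0492). Its call was lost without 9 of the 11 samples, the exceptions being fish oil mouse 1 and lard mouse 3, without mice 5 and 6 of both groups (0.20, adjusted p = 0.55), and with the clock index (0.25, adjusted p = 0.299). Of 10 neutrophil markers none was called by limma, nor had any an unadjusted p under 0.05. Of 7 hepatocyte markers 1 was called higher, and none without mice 5 and 6 of both groups. Among all genes 4.58% were called higher and 8.59% lower.

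**Figure D4:**
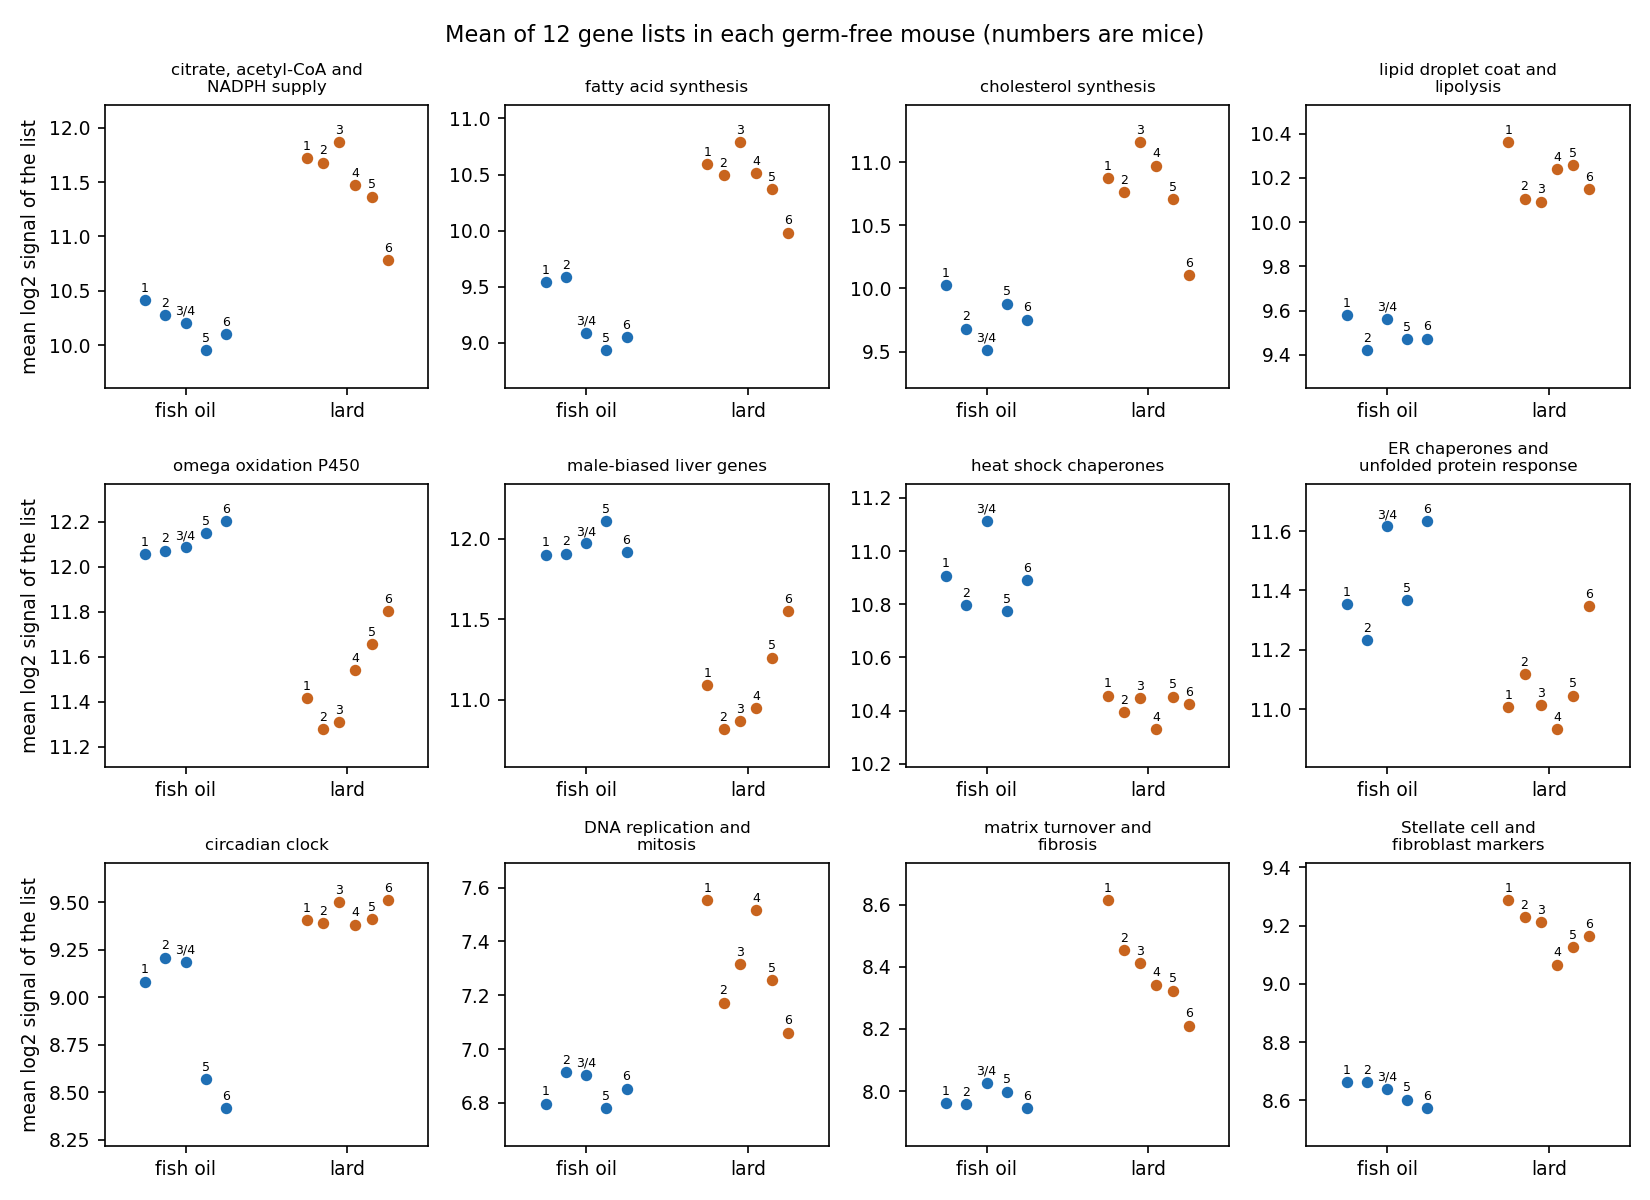
Mean log2 signal of the measured members of 12 gene lists (vertical axes, each panel with its own range) in each germ-free mouse, fish oil in blue and lard in orange, with mouse numbers. The stellate cell markers of the fish oil samples, at 8.57 to 8.66, lie below all lard mice, and the clock genes of fish oil mice 5 and 6 lie below those of the other fish oil samples.

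The clock genes split the fish oil group. Of 22 measured genes 9 were lower and 1 higher (median difference -0.31), and the lower count was 4 without fish oil mouse 6 and 5 without fish oil mouse 5. Dbp, an output of the clock that swings widely over the day, read 10.56, 10.83, 10.88, 8.62 and 7.998 on fish oil and 11.10 to 11.31 on lard. Fish oil mice 5 and 6 were far below the others, which were themselves below every lard mouse, and Dbp was not called (-1.44 ± 0.56, adjusted p = 0.0974). Arntl, the core activator that peaks opposite to Dbp, read 7.33, 7.16, 6.79, 8.50 and 8.77 against 6.64 to 7.502 (0.72 ± 0.37, adjusted p = 0.239). Rgs16, a clock-driven brake on receptor signalling, read 10.01, 9.77, 10.62, 7.92 and 9.51 against 11.68 to 12.68 and was called lower (-2.53 ± 0.65, adjusted p = 0.0106). Rgs16 lost the call without mice 5 and 6 of both groups (-1.999, adjusted p = 0.181) and with the clock index (-1.31, adjusted p = 0.0769). Clock, the partner of Arntl, was the gene that rose (0.72 ± 0.12, adjusted p = 0.000269), and its groups did not overlap.

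Times of death are not given in the sources used here. Without mice 5 and 6 of both groups, 1 of the 22 clock genes was called, in the upward direction, and over all genes 1433 were called in place of 2626. With a clock index (Dbp minus Arntl in each mouse) as a covariate 1576 genes were called. Of 130 genes named in the text that were called in germ-free mice, 115 kept the call with the index and 112 without mice 5 and 6 of both groups, and none changed direction. Of 79 counts of called list members, 44 moved by more than 1.5 times with the index and 49 without these mice.

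The lists of fat and sterol synthesis, matrix and male bias were among those that moved less. Without mice 5 and 6 of both groups the lower counts were 9 for citrate and NADPH supply, 7 for fatty acid synthesis, 8 for desaturases and elongases, 13 for cholesterol synthesis, 13 for matrix turnover and 6 for stellate cell markers. The male-biased list had 11 higher calls without these mice and 10 with the index. Larger moves were seen for growth hormone signalling, with 3 higher calls with the index, and for the ribosomal proteins, also with 3. The PPAR-alpha and fasting list had 1 higher and 1 lower call in each of these fits, and bile acid synthesis 1 higher and 1 lower. Without mice 5 and 6 of both groups the higher calls were 2 for the ATF4 response, 2 for bile acid transport and signalling and 0 for phospholipid genes. The lower calls there were 2 for interferon response, 1 for glucose production and insulin signalling and 2 for MHC class II presentation. Fewer samples enter the fit without these mice, and what part of the moves goes with time of day was not tested.

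The lists of inflammation differed in their share of called genes, which was 13.2% over all genes. Of 26 acute phase genes 3 (11.5%) were called higher and none lower (median difference 0.09), and without mice 5 and 6 of both groups none was called by limma. Fga, a chain of fibrinogen, rose by 0.60 ± 0.11 (adjusted p = 0.000969), or 0.47 without these mice (adjusted p = 0.054). Saa2, a serum amyloid, read 8.49 to 9.86 on fish oil and 9.93 to 11.44 on lard without overlap and was not called (-1.49 ± 0.60, adjusted p = 0.106). Saa3, another serum amyloid, went the other way, also without overlap and not called (0.98, adjusted p = 0.158). With the germ-free groups fitted alone 6 of the 26 acute phase genes were called higher and 5 lower. Of 27 interferon response genes 7 were called (25.9%), 2 higher and 5 lower (median -0.28), with 3 lower without fish oil mouse 5. Oasl1 fell by 0.63 ± 0.11 (adjusted p = 0.000376) and Irf7, the factor that amplifies the response, by 0.54 ± 0.12 (adjusted p = 0.0043; -0.49 and adjusted p = 0.0648 without mice 5 and 6 of both groups). None of 8 genes of MHC class II presentation was called by limma, 2 had an unadjusted p under 0.05 and all 8 differences were negative (median -0.24). Without fish oil mouse 6 or without lard mouse 5, 2 of them were called lower.

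Several of the largest or firmest changes belong to no list above. Serpina4-ps1, a serpin pseudogene, read 12.02, 11.25, 12.30, 11.77 and 11.998 on fish oil and 7.49 to 9.48 on lard (median 8.88), a 9.35-fold higher level (3.23 ± 0.38, adjusted p = 9.61e-06). Cav1, the coat protein of caveolae, read 9.27, 9.60, 9.37, 9.00 and 9.01 against 7.55 to 8.51 (1.36 ± 0.14, adjusted p = 1.09e-06). P4ha1, which hydroxylates collagen, was among the tightest, at 9.40 to 9.57 against 8.25 to 8.64 (1.06 ± 0.10, adjusted p = 1.09e-06). Avpr1a, the vasopressin receptor of the liver, rose by 1.86 ± 0.31 (adjusted p = 0.000308).

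Serpinb1a, an inhibitor of neutrophil proteases, read 9.81, 9.49, 9.40, 8.83 and 10.39 on fish oil and 6.91 to 8.41 on lard (1.99 ± 0.31, adjusted p = 0.000165). Adgrf1, an adhesion receptor, rose by 1.93 ± 0.28 (adjusted p = 7.79e-05), and Adh6-ps1, an alcohol dehydrogenase pseudogene, by 1.92 ± 0.20 (adjusted p = 1.92e-06). The groups of these 3 genes did not overlap. Rangrf rose by 1.56 ± 0.24 (adjusted p = 0.00014), and the homeobox gene Pknox2 by 1.19 ± 0.12 (adjusted p = 1.29e-06). When the probe sets of Rangrf were averaged its difference was 1.11, and a dimmer probe set differed by 0.005 (6.47 against 6.46). Among the smallest p-values upward were Thoc2l (1.04 ± 0.12), Zcchc2 (0.80 ± 0.10) and Sdc4, a cell surface proteoglycan (0.73 ± 0.09), with adjusted p of 9.61e-06, 1.25e-05 and 1.82e-05.

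A pair of large rises was less firm. Mt2, a metallothionein that binds zinc and copper, read 11.65, 12.22, 13.30, 12.22 and 11.39 on fish oil and 9.84 to 11.34 on lard (1.71 ± 0.55, adjusted p = 0.0409), and lost the call without 9 of the 11 samples (adjusted p up to 0.123). Foxq1, a forkhead transcription factor, was called at 1.58 ± 0.48 (adjusted p = 0.0279) and lost the call without 6 of them (adjusted p up to 0.0619). Neither was called without mice 5 and 6 of both groups (adjusted p = 0.173 and 0.28) or with the clock index (adjusted p = 0.107 and 0.184).

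Among the falls outside the lists, Mmd2 read 6.57, 7.08, 6.57, 6.84 and 6.66 on fish oil and 8.06 to 10.25 on lard, with mouse 6 far below the other lard mice (-2.74 ± 0.27, adjusted p = 1.09e-06). Pls1, an actin-bundling protein, read 6.07, 6.26, 6.06, 6.47 and 6.13 against 7.23 to 8.32 (-1.64 ± 0.16, adjusted p = 1.09e-06). Esr1, the oestrogen receptor alpha, read 7.81, 8.15, 8.01, 7.99 and 8.17 against 8.97 to 9.51 (-1.12 ± 0.12, adjusted p = 1.6e-06). Prss8, a membrane protease, fell by 2.05 ± 0.28 (adjusted p = 4.38e-05). Stap1, a signalling adaptor, read 4.56 to 5.53 on fish oil, below the level of 5.62, and 7.78 to 8.77 on lard (adjusted p = 9.32e-05), so no fold is given. Robo1, a receptor for Slit guidance proteins, fell by 1.22 ± 0.12 (adjusted p = 1.25e-06). Gga2, which sorts cargo at the Golgi, fell by 0.82 ± 0.08 (adjusted p = 1.09e-06), and Vac14, a scaffold for a lipid kinase of endosomes, by 0.76 ± 0.09 (adjusted p = 8.35e-06).

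The same diets were compared in the conventional mice, to ask whether the diet difference depends on bacteria. There 161 genes were called (0.808%), 41 higher (0.206%) and 120 lower (0.602%), and 3302 had an unadjusted p under 0.05. The fish oil conventional mice were more variable, with a median SD of 0.211 over 7284 well-expressed genes against 0.111 in the germ-free fish oil samples. The fit shares the spread of each gene over all 4 groups, so this variability entered both comparisons. Counts of calls do not themselves test whether the effects differ. The difference of the 2 diet effects was therefore tested itself. It was called for 121 genes (0.607%), 43 with a more positive effect in germ-free mice (0.216%) and 78 with a more negative one (0.391%), while 2426 had an unadjusted p under 0.05. In 117 of the 121 the germ-free effect was the larger in size. This count rested on single mice: it ran from 24 without lard mouse 1 to 233 without lard mouse 6.

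All 11 samples taken out in turn moved it past 1.5 times either way, with 38 without fish oil mouse 5 and 68 without lard mouse 5. Of 43 such genes followed one by one, 11 kept the call without each germ-free mouse in turn. Sqle fell by 2.22 on fish oil in germ-free mice and was not called in conventional mice, where its difference was 0.53 (adjusted p = 0.44). The effects differed by -2.75 ± 0.49 (adjusted p = 0.012). Over the cholesterol list the median effect was -0.91 in germ-free and -0.13 in conventional mice, and 6 of the 17 genes were called for the difference, all more negative in germ-free mice. Of these 6 only Sqle kept the call with each germ-free sample left out in turn, and the others reached adjusted p of up to 0.0869. The heat shock genes Hspa1a, Dnajb1, Dnajb4 and Bag3 had effects that were more positive in germ-free mice by 1.48 ± 0.21, 1.53 ± 0.26, 0.81 ± 0.14 and 1.12 ± 0.21. Their conventional effects were 0.12, -0.24, -0.20 and -0.21, and the adjusted p for the difference lay between 0.0035 and 0.022. All 4 kept the call with each germ-free sample left out.

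Pltp fell in germ-free mice and had an effect of 0.04 in conventional mice (difference -1.52 ± 0.27, adjusted p = 0.011). Col1a2 differed between the 2 effects by -0.71 ± 0.13 (adjusted p = 0.016), and 5 of the 25 matrix genes and 4 of the 10 stellate cell markers were called for the difference, all more negative in germ-free mice. With each germ-free sample left out in turn none of these 5 matrix genes kept the call (adjusted p up to 0.0889), and Col1a2 alone of the 4 markers did. Pls1, P4ha1, Cav1, Hspa1a and Blnk, an adaptor of B cell signalling, shared the smallest adjusted p for the difference, 0.0035. Hsd3b5 had an effect of 0.41 in conventional mice against 4.62 in germ-free mice (difference 4.21 ± 0.81, adjusted p = 0.022), and this call was lost without lard mouse 1 (adjusted p = 0.0526). Among the genes with the most positive differences between the effects were also Serpinb1a (2.04 ± 0.43), Cplane1 (1.45 ± 0.30), Rnf186, a ubiquitin ligase (1.43 ± 0.33), and Trp53inp1, a p53-induced protein (1.12 ± 0.23), with adjusted p of 0.0363, 0.0326, 0.049 and 0.0284. Each lost this call without 7 or more of the 11 samples. In germ-free mice Trp53inp1 rose by 0.87 ± 0.17 (adjusted p = 0.000927), Rnf186 was not called (0.58 ± 0.24, adjusted p = 0.117), and Cplane1 was called at 0.68 ± 0.22 (adjusted p = 0.0396) but not without 9 of the samples, and at 0.34 when its probe sets were averaged.

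For the 12 genes of fatty acid synthesis no difference between the effects was called by limma, and 5 had an unadjusted p under 0.05. Fasn had an effect of -1.46 in conventional mice (adjusted p = 0.039) and Thrsp one of -2.73 (adjusted p = 0.034), and their effects differed by -0.85 ± 0.48 (adjusted p = 0.5) and -0.94 ± 0.82 (adjusted p = 0.72). Mfsd2a was lower in both settings, by -2.64 and -2.96 on the log2 scale (difference 0.33 ± 0.84, adjusted p = 0.93). Of all genes, 88 were called in both diet comparisons in the same direction.

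**Figure D5:**
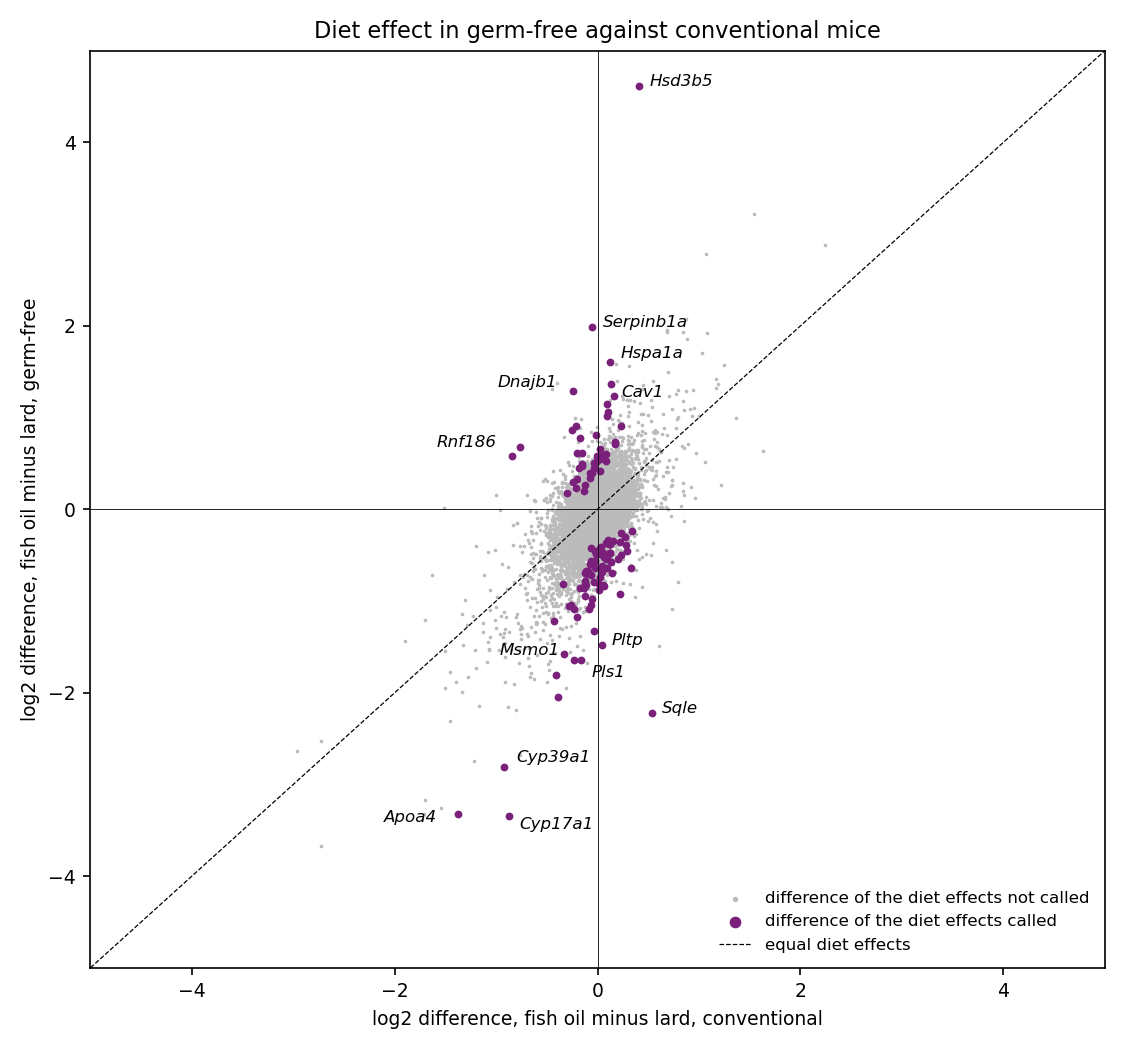
The diet effect in conventional mice (horizontal axis) against that in germ-free mice (vertical axis), both as log2 fish oil minus lard, for 19938 genes. Purple points are the 121 genes whose 2 effects differed by the test, the dashed line marks equal effects, and Sqle lies far below it at -2.22 against 0.53.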

How the data were processed

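Liver RNA (250 ng per mouse) was hybridised to Affymetrix mouse gene arrays, 1 array per mouse. The deposited values are log2 signals; per the submitters' processing notes they come from RMA, which corrects background, sets all arrays to 1 distribution and summarises probes, run with engine version 1.1.2800.28061 of Affymetrix Expression Console and library release r4. RMA hides a shift shared by most genes and can blend close gene copies. Arrays give no read depth, so the number of mice limits the precision.

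Of 35556 probe sets 21789 had 1 gene symbol, 1621 several and 12146 none. Each of the 19938 genes is represented by its brightest probe set on average. The 23 samples were fitted with limma 3.58.1 (R 4.3.3) as 4 group means, with p-values adjusted by Benjamini and Hochberg over all genes and called under 0.05. The script was tested on simulated data with known answers. These gave each gene the same spread in all 4 groups, unlike the more variable fish oil conventional mice. The test therefore cannot show how the fit handles unequal spread.

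Genes named are the 15 highest and 15 lowest called, the 10 smallest p in each direction, up to 4 called genes of each list, any list member used to account for its list (2 sex-linked genes are named outside this rule as a check of sex), and the 8 highest and 8 lowest of those called for the difference between diet effects, with unnamed transcripts passed over. The members and lists were chosen with earlier results of these data known. No fold is given where a group mean lies below 5.62. Mouse numbers do not pair the diets: same-numbered mice correlated at 0.005 to 0.233. The arrays numbered 5 and 6 do share a spread in both diets, as described above, and the main fit has no term for it. Alternatives covered the samples fitted, scaling, filter, variance model, weights, fold threshold, table, probe sets, clock and left-out mice. Promoters came from RefSeq.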

Additional observations from a re-analysis of the deposited data

Results flagged for a closer look

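Among the genes named, 31 had a diet effect that differed between germ-free and conventional mice by the test of the difference itself, on the log2 scale and with the adjusted p under 0.05. Without each germ-free sample in turn 11 of them kept this call: Bag3 by 1.12, Cav1 by 1.23, Dnajb1 by 1.53, Dnajb4 by 0.81, Hspa1a by 1.48 and P4ha1 by 0.95 were more positive in germ-free mice, and Blnk by -0.98, Col1a2 by -0.71, Pls1 by -1.48, Pltp by -1.52 and Sqle by -2.75 more negative. The difference for Hsd3b5 (4.21) and for Col1a1 (-0.76) lost its call without lard mouse 1, with adjusted p of 0.0526 and 0.0538. The other 18 lost it without 5 to 10 of the samples, with adjusted p of at most 0.0959: Cplane1 by 1.45, Cyp4f14 by 0.63, Mcm10 by 0.64, Ppp1r15a by 0.53, Rnf186 by 1.43, Sdc4 by 0.56, Serpinb1a by 2.04 and Trp53inp1 by 1.12 were more positive, and Apoa4 by -1.95, Cyp17a1 by -2.47, Cyp39a1 by -1.89, Gga2 by -0.48, Lss by -1.25, Msmo1 by -1.41, Pdgfrb by -0.82, Prss8 by -1.65, Robo1 by -0.79 and Vim by -0.84 more negative.

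In 18 of the 328 groups tested, each of a named gene, 1 sample lay apart from the rest of its group, where chance alone gives about 1 in 20. Lard mouse 6 was that sample in 9 groups. It was low for Epcam (6.68, others from 6.96), Fads1 (12.96, others from 13.34), Fads2 (13.14, others from 13.45), Fdps (10.76, others from 11.54), Hmgcs1 (10.88, others from 11.71), Mmd2 (8.06, others from 9.45), Pcyt2 (11.40, others from 11.74) and Slc25a1 (12.08, others from 12.43). It was high for Cyp1a2 (12.24, others up to 11.87). Lard mouse 4 was high for Blnk (7.18, others up to 6.72) and Esr1 (9.51, others up to 9.15). The averaged fish oil mice 3 and 4 were high for Dnajb1 (11.22, others up to 10.01) and low for Foxq1 (9.73, others from 10.28), Insig1 (10.71, others from 11.34) and Hand2 (7.27, others from 7.503). Fish oil mouse 2 was low for Acadm (12.77, others from 12.85) and fish oil mouse 6 for Trp53inp1 (10.76, others from 11.65) and Vac14 (9.76, others from 9.90).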

How the results depend on the processing

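The count of 2626 genes called in germ-free mice stayed within 1.5 times under most alternatives and ran from 1990 to 2613 with 1 sample left out. It was 36 against a fold of 1.5 (268 with an unadjusted p under 0.05), 1433 when mice 5 and 6 of both diets were dropped and 1576 when the clock index (Dbp minus Arntl) was added to the fit. The count of 121 for the difference between diet effects was 209 with all 24 arrays as separate samples, 79 with a trended and robust variance, 260 with array weights, 283 with the clock index, 0 by limma against a fold of 1.5 (56 unadjusted), and 24 to 233 with 1 sample left out. The germ-free groups alone give no value for it. With the replicate block over 24 arrays the counts were 3125 and 190. Mouse 5 alone correlated best with its own number, so the numbers do not pair the mice. The cause of these moves was not tested beyond the fewer samples of some fits. Of the 130 named genes that were called, none changed direction, but 102 lost the call against a fold of 1.5, 15 with the clock index, 18 without mice 5 and 6 and 3 to 8 with 1 sample left out; the first 15 and 18 are given with their values in the results. Among those not called, Alb turned to 0.04 and 0.007 and Apoa1 to 0.038 under other scalings, Arntl to -0.129, Reln to 0.003 and Sox9 to -0.098 with the clock index, and Cyp2b9 to -0.167 and Sox9 to -0.008 without mice 5 and 6. The clock index contains Arntl itself, so the value of Arntl with the index cannot show how stable its difference is. Hspd1 turned to -0.011 with probe sets averaged. With 1 sample left out Cyp7a1 ran from -0.111 to 0.162, Hspd1 from -0.006 to 0.044, Acadm from -0.005 to 0.049 and Sox9 from -0.026 to 0.078.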
